A study of Mus musculus with 20 samples.

Results

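The sarcomere, the repeating contractile unit of striated muscle, was followed in C2C12 myotubes through 43 genes that code for its thin filament, its light chains, its Z-disc, titin with the thick filament and the M-band, and the factors that assemble and repair it. The members were taken by symbol from a list chosen with earlier results of these data known, out of the 55335 genes of the table. All 43 had a mean of at least 3 rlog units, the floor for testing, in both experiments. C2C12 is an established mouse myoblast line whose confluent cells fuse into multinucleated myotubes when serum is withdrawn. The study asked how raised Period 1 (Per1) or Period 2 (Per2), repressors of the circadian clock, affect such myotubes. An adenovirus coding for Per1 and Gfp, for Per2 and Gfp, or for Gfp alone was added on day 4 of differentiation, and RNA was taken 48 h later. There were 4 groups of 5 libraries. The Per1 libraries 11 to 15 were compared with Gfp libraries 11 and 13 to 16, and the Per2 libraries 1 to 5 with Gfp libraries 1 to 5.

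All cultures were given a vector with Gfp behind a cytomegalovirus promoter, and in the Per vectors a separate promoter of the same kind drove the Period gene. The Per viruses were given at a higher virus concentration than the Gfp virus, so the Period genes and the virus load cannot be told apart in these groups. The values are rlog values, that is, log2 abundances shrunken so that differences come out smaller than in the counts. Counts were not part of the table, hence sequencing depth is unknown, and gene length is not corrected for. The rlog values of the Per1 and Per2 experiments were made separately, therefore each Per group was read against its own Gfp group, and the difference between the Per1 and the Per2 effect was not tested. In bulk RNA, fewer cells of a type and less RNA per cell cannot be told apart.

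In the sarcomere, actin thin filaments are anchored in the Z-disc and slide past myosin thick filaments that are cross-linked in the M-band. Titin spans from Z-disc to M-band, nebulin runs along the thin filament, and desmin ties neighbouring Z-discs together. Myosin heads need light chains to bear force, and dedicated chaperones fold myosin before it enters the filament. In muscle, many of these genes carry binding sites for serum response factor (the CArG box), for MEF2 and for the myogenic basic helix-loop-helix factors (the E box) close to their start.

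The vector-borne genes behaved as labelled. The Per1 mRNA content was 15.27 ± 0.03 in Gfp and 19.58 ± 0.11 in Per1 overexpressing myotubes (mean rlog ± SD, n = 5), and that of Per2 was 14.82 ± 0.11 in Gfp and 19.71 ± 0.05 in Per2 overexpressing myotubes. A list of 11 myotube markers, also chosen with earlier results known, includes Ckm, Myog and Ryr1. Its mean lay between 15.36 and 16.03 in every library, so myotube markers were expressed in all 4 groups. The mean over 8 markers of proliferating myoblasts lay between 13.26 and 13.53, and that over 8 fibroblast markers between 13.23 and 13.46. Gene length is not corrected for in these means, so they do not rank the cell types. No pair of libraries held identical values. Gfp library 3 of the Per2 experiment stood apart within the sarcomere list, with the highest value of its group for 30 of the 43 members. Per1 library 14 had the lowest value of its group for 23 of the 43.

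More sarcomere genes fell than rose with both Period genes, by small steps. With Per1, 26 of 43 members were lower and 4 were higher at an adjusted p of at most 0.05, where 20.6% of the 20559 genes tested were lower and 20.1% higher (40.7% called in either direction). With Per2, 18 were lower and 4 higher, where 17.5% of the 20628 genes tested were lower and 18.6% higher (36.1% in either direction). The median difference of the members was -0.11 log2 units with Per1 and -0.07 with Per2, while the median over all genes tested was 0.0011 and 0.0006. No member reached a size of 0.5 log2 units, which 0.253% of all genes passed downward and 0.443% upward with Per1, and 0.296% and 0.325% with Per2. Without Gfp library 3, the Per2 comparison gave 15 lower and 6 higher members and a median of -0.04.

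The mean over the 43 members put the size of this shift beside the spread of the libraries. It lay between 14.28 and 14.31 in the 5 Gfp libraries and between 14.14 and 14.21 in the 5 Per1 libraries, so the groups did not overlap. In the comparison with Per2 it lay between 13.90 and 14.04 in Gfp and between 13.86 and 13.91 in Per2 libraries, and the groups overlapped. Taking single genes, 22 members were lower and 4 higher with Per1 with no overlap between the groups, where all genes gave 14.8% and 14.6%. With Per2, 12 were lower and 3 higher with no overlap, where all genes gave 12.5% and 13.2%. Counted whether called or not, the groups did not overlap for 26 members with Per1 and 16 with Per2, beside 29.7% and 26.3% of all genes.

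**Figure D1:**
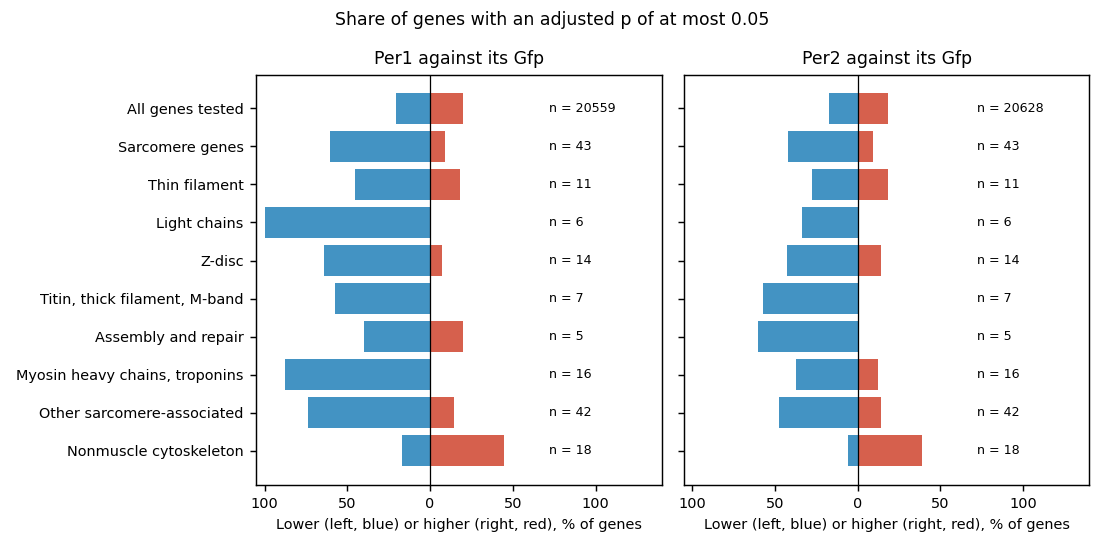
Share of genes that were lower (left, blue) or higher (right, red) at an adjusted p of at most 0.05, in percent of the genes tested, for all genes, for the 43 sarcomere genes, for their 5 role groups and for 3 related lists. With Per1 the bar of the 43 genes reached 60.5% lower and 9.3% higher, and with Per2 41.9% lower and 9.3% higher.

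The calls in both comparisons were set side by side gene by gene. Lower with both Period genes were 12 members (Flnc, Ldb3, Lmod2, Myl1, Mylk2, Myom2, Neb, Obsl1, Smpx, Tcap, Unc45b and Xirp1), which is 27.9% of the list, where 10.6% of the 20153 genes tested in both were lower in both. Higher with both were Nebl and Pdlim3. A further 14 were called lower with Per1 and not with Per2 (Acta1, Actn2, Actn3, Csrp3, Des, Lmod3, Myl2, Myl3, Myl4, Mylpf, Myom1, Myom3, Myoz2 and Tpm2), and 6 were called lower with Per2 and not with Per1 (Mybpc1, Myot, Myoz1, Tmod4, Ttn and Xirp2). Smyd1 and Tpm3 were called higher with Per1, Synpo2l and Tmod1 with Per2. Actc1, Capn3, Mybpc2, Myoz3 and Tpm1 were called in neither comparison, and no member was called in opposite directions. Since the effects of Per1 and Per2 were not tested against each other, a call in 1 comparison does not show that they differ.

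**Figure D2:**
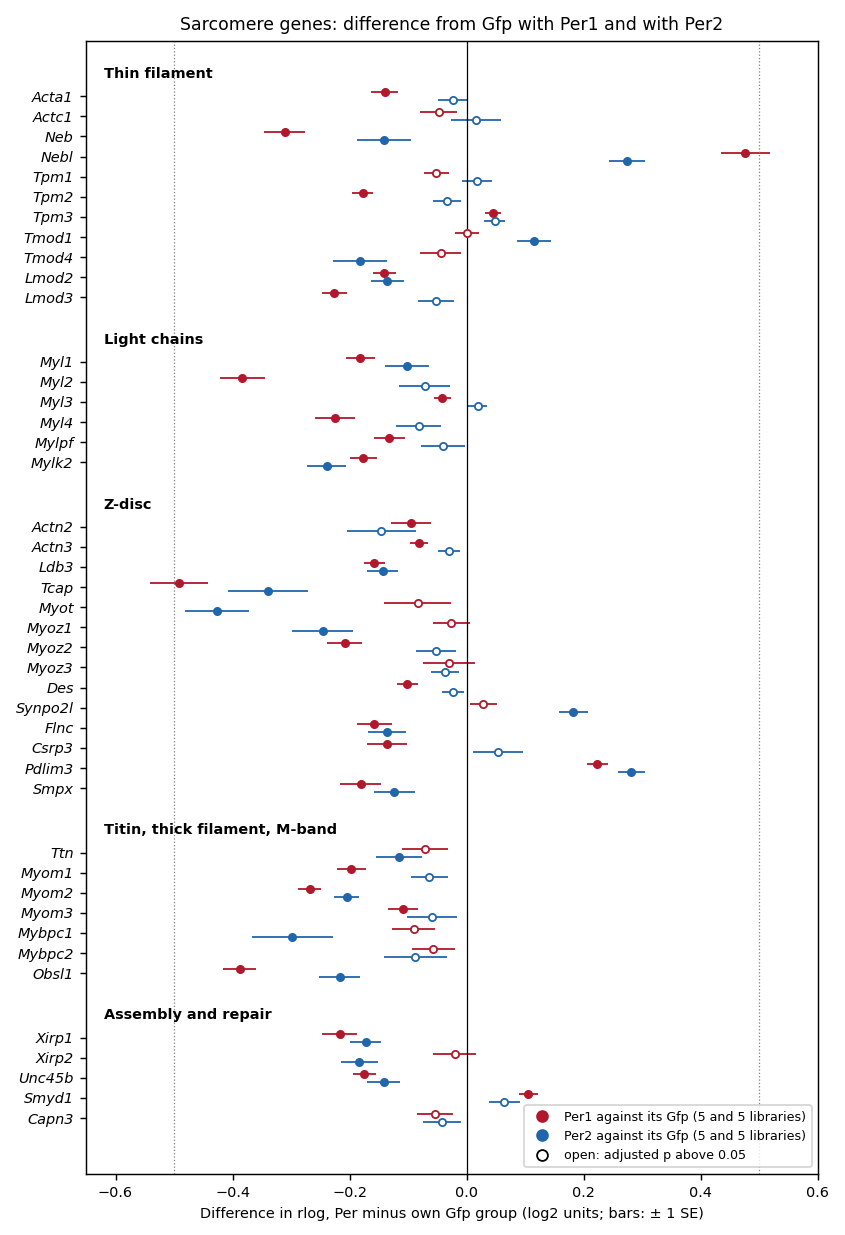
Difference in rlog between each Per group and its own Gfp group (x axis, log2 units) for the 43 sarcomere genes by role (y axis), with bars of 1 standard error and 5 libraries per group. Filled points passed an adjusted p of 0.05, the dotted lines mark 0.5 log2 units, and the points ran from Tcap at -0.49 to Nebl at 0.48, both with Per1.

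Levels of different genes were compared as rlog minus the log2 of the exon length in kb. On this per-length scale the fast regulatory light chain Mylpf was the most abundant member in the Gfp libraries of the Per1 experiment (18.14 ± 0.05), followed by Acta1 (17.14 ± 0.04), Des (16.76 ± 0.02), Myl1 (16.29 ± 0.04) and Tpm2 (16.02 ± 0.02). The same 5 genes led in the same order in the Gfp libraries of the Per2 experiment, from 18.13 ± 0.10 for Mylpf to 15.77 ± 0.05 for Tpm2. At the low end stood Nebl (5.59 ± 0.07), Myoz3 (4.18 ± 0.09) and Myl3 (2.52 ± 0.02) in the Per1 experiment. These 3 were also the lowest in the Per2 experiment, where Myl3 measured 2.21 ± 0.02. Myl3 codes for the slow and ventricular essential light chain.

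Promoters from RefSeq (GRCm38.p6), each 250 bases before to 50 after an annotated start, were given for 33 of the 43 members, in 43 entries. The CArG box occurred in 16.3% of the member entries (Acta1, Actc1, Ldb3, Myl3, Myom1 and Nebl) and in 1.63% of all 32851 promoters. A MEF2 site occurred in 16.3% of the member entries (Capn3, Myom3, Myoz2, Synpo2l, Ttn and Xirp2) and in 3.19% of all. The general E box CANNTG was found in 79.1% of member entries and 72.3% of all, and TATAAA in 11.6% and 13.6%. The clock E box CACGTG, which overlaps the general E box, was found in 6.98% of member entries (Actn2, Nebl and Unc45b) and in 7.15% of all. Both strands were searched for each motif, and the matches are a description of these windows. Genes with a CArG box stood among those that fell with Per1 (Acta1, Ldb3, Myl3 and Myom1), among those that rose (Nebl) and among those not called (Actc1).

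The promoters of 3 genes, chosen after their values were seen, are shown: the main skeletal actin Acta1, which fell with Per1, Obsl1, which fell without overlap in both comparisons, and Pdlim3, which rose without overlap in both. Capitals mark the general E box, the CArG box and TATAAA, on the strand of the gene. Acta1 lies at chr8:123894726-123895025 (minus strand), Obsl1 at chr1:75506403-75506702 (minus strand) and Pdlim3 at chr8:45885237-45885536 (plus strand).
Acta1: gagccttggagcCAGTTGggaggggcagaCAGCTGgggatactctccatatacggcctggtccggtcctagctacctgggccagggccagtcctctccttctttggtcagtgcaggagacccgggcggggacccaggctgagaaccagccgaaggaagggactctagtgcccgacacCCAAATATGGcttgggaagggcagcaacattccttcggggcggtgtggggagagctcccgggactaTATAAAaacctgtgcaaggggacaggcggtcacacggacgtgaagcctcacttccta
Obsl1: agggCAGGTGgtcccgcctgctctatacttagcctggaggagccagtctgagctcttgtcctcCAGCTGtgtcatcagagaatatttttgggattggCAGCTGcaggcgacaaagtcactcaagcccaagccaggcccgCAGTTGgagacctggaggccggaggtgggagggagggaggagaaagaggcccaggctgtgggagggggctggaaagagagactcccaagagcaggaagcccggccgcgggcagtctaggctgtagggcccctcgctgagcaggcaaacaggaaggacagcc
Pdlim3: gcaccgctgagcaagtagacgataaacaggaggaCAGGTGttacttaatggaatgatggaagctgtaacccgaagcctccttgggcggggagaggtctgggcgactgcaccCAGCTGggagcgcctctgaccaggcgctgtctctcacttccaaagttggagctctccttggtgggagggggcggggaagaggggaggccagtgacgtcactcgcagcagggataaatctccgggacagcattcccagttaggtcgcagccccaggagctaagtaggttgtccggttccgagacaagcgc
The Acta1 window held 1 CArG box, starting at position -73 from the annotated start, 2 general E boxes and 1 TATAAA. The Obsl1 window held 4 general E boxes and the Pdlim3 window 2, and neither held a CArG box, a MEF2 site or TATAAA.

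In the thin filament, 5 of 11 genes fell with Per1 (Acta1, Neb, Tpm2, Lmod2 and Lmod3) and 2 rose (Nebl and Tpm3), and with Per2 3 fell (Neb, Tmod4 and Lmod2) and 2 rose (Nebl and Tmod1). The share of all genes was 20.6% lower and 20.1% higher with Per1, and 17.5% and 18.6% with Per2, so the share of the group that rose was near the background in both. The median of the group was -0.05 log2 units with Per1 and -0.02 with Per2. With Per2 this median was 0.02 under quantile normalization, and both that setting and the fit without Gfp library 3 gave 2 lower and 3 higher genes.

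Acta1, skeletal muscle alpha-actin and the main actin of the mature thin filament (chr8:123891758-123894775), measured 19.06, 19.10, 19.00, 19.00 and 19.01 in the Gfp libraries and 18.90, 18.87, 18.93, 18.88 and 18.88 in the Per1 libraries. Every Per1 library was below every Gfp library, and the difference was -0.14 ± 0.023 (SE, adjusted p = 0.00018), or 0.908 times the Gfp level. In the Per2 experiment Acta1 measured 18.64, 18.50, 18.58, 18.51 and 18.54 in Gfp and 18.56, 18.55, 18.55, 18.49 and 18.51 in Per2 libraries. Here the groups overlapped, with a difference of -0.02 ± 0.026 (adjusted p = 0.53). Actc1, the cardiac alpha-actin that skeletal muscle makes during development, differed by -0.05 with Per1 and 0.02 with Per2, with adjusted p values of 0.25 and 0.81.

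Neb codes for nebulin, the giant protein that runs along the thin filament (chr2:52136640-52338798). Its values were 17.97, 18.01, 17.93, 17.95 and 17.87 in Gfp and 17.76, 17.57, 17.66, 17.59 and 17.59 in Per1 libraries. The groups did not overlap, and Neb fell by 0.31 log2 units (SE 0.035, adjusted p = 6.2e-06), the largest fall in the thin filament. For the Per2 comparison, the values were 17.57, 17.43, 17.55, 17.34 and 17.46 in Gfp and 17.43, 17.36, 17.39, 17.24 and 17.23 in Per2 libraries. These groups overlapped at a difference of -0.14 ± 0.046 (adjusted p = 0.027). The call was lost without Gfp library 1 or 3 or Per2 library 4 or 5 (adjusted p from 0.066 to 0.073). It was also lost under quantile normalization (0.075) and with no filter (0.061).

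Nebl, the gene of nebulette, the short relative of nebulin that is best known from the Z-disc of heart muscle (chr2:17342673-17734949), moved the other way. It measured 9.87, 9.89, 9.80, 9.98 and 9.86 in Gfp and 10.36, 10.33, 10.26, 10.34 and 10.50 in Per1 libraries. All Per1 libraries were above all Gfp libraries, with a difference of 0.48 ± 0.041 (adjusted p = 5.1e-07), or 1.39 times the Gfp level. With Per2 the values rose from 9.74, 9.72, 9.73, 9.76 and 9.74 to 9.98, 10.01, 9.97, 10.12 and 9.99. The groups were again apart, at 0.27 ± 0.031 (adjusted p = 1.1e-05). Nebl is also the source of transcripts for LASP2, a protein of nonmuscle adhesions, which gene-level values do not separate from those of nebulette.

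Tropomyosins lie along actin and gate its access to myosin. Tpm2 fell with Per1 (-0.18 ± 0.018, adjusted p = 2.2e-06) with no overlap between the groups, and differed by -0.03 with Per2 (adjusted p = 0.31), a value that changed sign under quantile normalization. Tpm3, the tropomyosin of slow fibres and of the nonmuscle cytoskeleton, rose by 0.04 with Per1 (adjusted p = 0.018) and lost this call under median centring (adjusted p = 0.24) and without Per1 library 15 (adjusted p = 0.055). With Per2 it differed by 0.05 (adjusted p = 0.052, or 0.037 without Gfp library 3). Tpm1 was called in neither comparison. Of the 50-base words of the Tpm3 transcripts, 15.4% also occurred in another annotated gene, Tpm3-rs7, so its level is uncertain where reads could be split.

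Tropomodulins cap the pointed end of the thin filament and leiomodins nucleate and lengthen it. Lmod2 fell in both comparisons (-0.14 with each, adjusted p of 4.1e-05 and 0.0016), and Lmod3 fell with Per1 (-0.23, adjusted p = 1.2e-06) and differed by -0.05 with Per2 (adjusted p = 0.20). Tmod4, the skeletal muscle tropomodulin, measured 7.64, 7.51, 7.75, 7.64 and 7.72 in Gfp and 7.56, 7.41, 7.52, 7.41 and 7.45 in Per2 libraries. It fell by 0.18 log2 units (adjusted p = 0.0064), with Per2 libraries 1 and 3 inside the range of Gfp. In the Per1 experiment Tmod4 measured 7.41, 7.36, 7.37, 7.48 and 7.35 in Gfp and 7.42, 7.36, 7.37, 7.31 and 7.29 in Per1 libraries, which overlapped (adjusted p = 0.33). Tmod1, the more widely expressed tropomodulin, rose with Per2 (0.11 ± 0.029, adjusted p = 0.0069) and differed by 0.001 with Per1.

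**Figure D3:**
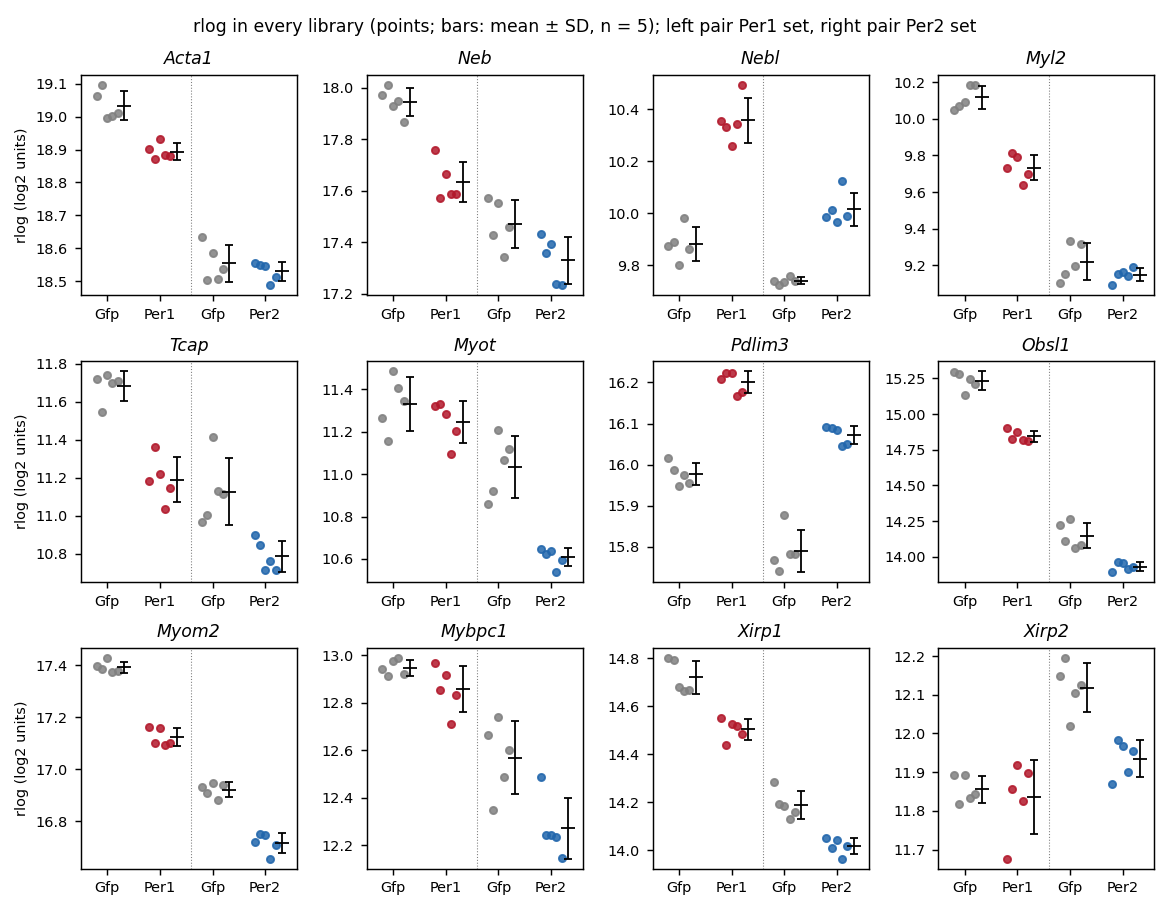
The rlog value (y axis, log2 units, a scale of its own in each panel) of 12 sarcomere genes in every library, with the mean ± SD of 5 libraries beside each group. The left pair of groups is the Per1 experiment and the right pair the Per2 experiment, which are not comparable with each other. Nebl and Pdlim3 lay above Gfp in all Per libraries, and Tcap, Obsl1, Myom2 and Xirp1 below Gfp in all Per libraries.

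In the light chain group, all 6 genes (Myl1, Myl2, Myl3, Myl4, Mylpf and the kinase gene Mylk2) were called lower with Per1, Myl3 only narrowly. The median was -0.18 log2 units, against 2 of 6 lower (Myl1 and Mylk2) and a median of -0.08 with Per2. Beside this and the following role groups, all genes gave 20.6% lower and 20.1% higher with Per1, and 17.5% and 18.6% with Per2. Myosin essential light chains stiffen the lever arm of the myosin head, and regulatory light chains are phosphorylated by the kinase that Mylk2 codes for.

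Myl2, the slow and ventricular regulatory light chain (chr5:122092724-122113473), showed the largest fall of this group. Its values were 10.05, 10.07, 10.09, 10.19 and 10.18 in Gfp and 9.73, 9.81, 9.79, 9.64 and 9.70 in Per1 libraries. The groups lay apart by -0.38 ± 0.038 (adjusted p = 2.0e-06), or 0.767 times the Gfp level. With 9.10, 9.15, 9.33, 9.20 and 9.32 in Gfp and 9.09, 9.15, 9.16, 9.14 and 9.19 in Per2 libraries, Myl2 overlapped in the Per2 experiment (-0.07, adjusted p = 0.22).

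Myl4, the embryonic and atrial essential light chain, measured 16.10, 16.05, 16.15, 16.17 and 16.18 in Gfp and 15.86, 16.03, 15.91, 15.81 and 15.91 in Per1 libraries. The groups were apart, by a narrow margin at Per1 library 12, and Myl4 fell by 0.23 log2 units (adjusted p = 0.00012). In the Per2 and matched Gfp myotubes, its values were 15.75, 15.70, 15.96, 15.86 and 15.86 in Gfp and 15.72, 15.79, 15.70, 15.76 and 15.74 in Per2 libraries, which overlapped (-0.08, adjusted p = 0.11).

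Myl1, the fast essential light chain, measured 17.72, 17.67, 17.77, 17.75 and 17.77 in Gfp and 17.54, 17.60, 17.58, 17.49 and 17.56 in Per1 libraries. It fell by 0.18 log2 units with no overlap (adjusted p = 3.9e-05). In the comparison with Per2 the values were 17.72, 17.72, 17.92, 17.89 and 17.88 in Gfp and 17.73, 17.74, 17.74, 17.69 and 17.72 in Per2 libraries. Gfp libraries 1 and 2 lay at the level of the Per2 group, and the difference was -0.10 (adjusted p = 0.047). This call was lost without any 1 of the other 8 libraries (adjusted p from 0.067 to 0.11). It was also lost under quantile normalization (0.17), with no filter (0.090) and with no trend (0.066). Of the 50-base words of Myl1, 7.29% were shared with the annotated gene Mylf-ps.

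Mylpf, the fast regulatory light chain (chr7:127208848-127214288), measured 18.40, 18.35, 18.44, 18.43 and 18.48 in Gfp and 18.24, 18.36, 18.29, 18.25 and 18.30 in Per1 libraries. It fell by 0.13 log2 units (SE 0.027, adjusted p = 0.0010), with Per1 library 12 just above the lowest Gfp library. In the Per2 experiment its 18.31, 18.31, 18.51, 18.48 and 18.48 in Gfp and 18.35, 18.40, 18.37, 18.38 and 18.38 in Per2 libraries overlapped throughout (-0.04, adjusted p = 0.45). The SD was 0.10 in Gfp and 0.02 in Per2 libraries.

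Mylk2, the skeletal myosin light chain kinase, fell in both comparisons without overlap. Within the Per1 experiment the values went from 11.86, 11.85, 11.79, 11.79 and 11.78 to 11.69, 11.61, 11.64, 11.63 and 11.63 (-0.18, adjusted p = 2.6e-05). For the Per2 comparison, they went from 11.60, 11.47, 11.56, 11.45 and 11.47 to 11.34, 11.31, 11.25, 11.24 and 11.22 (-0.24, adjusted p = 7.2e-05). Myl3, the least abundant member, differed by -0.04 with Per1 at an adjusted p of 0.042, and by 0.02 with Per2 (adjusted p = 0.39). Its call with Per1 was lost without Gfp library 13, 14 or 15 or Per1 library 11, 13, 14 or 15 (adjusted p from 0.051 to 0.11). It was also lost under quantile normalization (0.054), with no filter (0.10), with no trend (0.063) and with library numbers as a block (0.057).

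The Z-disc held the largest fall of each comparison, Tcap with Per1 and Myot with Per2. With Per1, 9 of its 14 genes fell (Actn2, Actn3, Ldb3, Tcap, Myoz2, Des, Flnc, Csrp3 and Smpx) and Pdlim3 rose. With Per2, 6 fell (Ldb3, Tcap, Myot, Myoz1, Flnc and Smpx) and Pdlim3 and Synpo2l rose. The medians were -0.10 and -0.09 log2 units.

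Tcap codes for telethonin, the cap that joins the ends of a pair of titin molecules at the Z-disc (chr11:98383811-98384953). It measured 11.72, 11.55, 11.74, 11.70 and 11.71 in Gfp and 11.19, 11.36, 11.22, 11.04 and 11.15 in Per1 libraries. Every Per1 library was below every Gfp library, at -0.49 ± 0.050 (adjusted p = 2.5e-06), or 0.711 times the Gfp level, the largest change in size among the 43 genes. In the Per2 and matched Gfp myotubes, Tcap measured 10.97, 11.00, 11.42, 11.13 and 11.12 in Gfp and 10.90, 10.85, 10.71, 10.76 and 10.72 in Per2 libraries. Gfp library 3 was well above the others, the groups still did not overlap, and the difference was -0.34 ± 0.068 (adjusted p = 0.0014), or -0.27 without that library.

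Myot codes for myotilin, which binds alpha-actinin, filamin C and actin in the Z-disc (chr18:44334053-44355740). In the comparison with Per2 it measured 10.86, 10.92, 11.21, 11.07 and 11.12 in Gfp and 10.65, 10.62, 10.64, 10.54 and 10.59 in Per2 libraries. The Per2 libraries sat close together below all Gfp libraries, and Myot fell by 0.43 log2 units (SE 0.055, adjusted p = 3.4e-05) to 0.744 times the Gfp level, the largest fall with Per2. In the Per1 experiment it measured 11.27, 11.16, 11.48, 11.41 and 11.34 in Gfp and 11.32, 11.33, 11.28, 11.09 and 11.20 in Per1 libraries. These groups overlapped at -0.08 ± 0.057 (adjusted p = 0.26).

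Pdlim3, an actinin-associated PDZ and LIM domain protein of the Z-disc (chr8:45885487-45919635), rose in both comparisons. Its values were 16.02, 15.99, 15.95, 15.98 and 15.96 in Gfp and 16.21, 16.22, 16.22, 16.17 and 16.18 in Per1 libraries, a difference of 0.22 ± 0.018 (adjusted p = 2.3e-07). In the Per2 experiment they were 15.77, 15.74, 15.88, 15.78 and 15.78 in Gfp and 16.09, 16.09, 16.08, 16.04 and 16.05 in Per2 libraries, a difference of 0.28 ± 0.024 (adjusted p = 7.3e-07). The lowest Per library was above the highest Gfp library both times, by more than the range of the Per group. Its relative Ldb3 (ZASP or Cypher), which has the same domain types, fell in both, by 0.16 log2 units with Per1 (adjusted p = 6.1e-06) and 0.14 with Per2 (adjusted p = 0.00065), also without overlap. Synpo2l, an actin-binding relative of myopodin, rose with Per2 (0.18 ± 0.024, adjusted p = 5.0e-05) with no overlap and differed by 0.03 with Per1 (adjusted p = 0.34).

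Des, desmin, the intermediate filament around the Z-disc (chr1:75360292-75368579), measured 19.12, 19.15, 19.10, 19.11 and 19.12 in Gfp and 19.00, 19.04, 19.02, 19.00 and 19.03 in Per1 libraries. It fell by 0.10 log2 units with no overlap (SE 0.018, adjusted p = 0.00036), and lost this call under quantile normalization (adjusted p = 0.16). For the Per2 comparison, Des measured 18.80, 18.76, 18.79, 18.75 and 18.81 in Gfp and 18.76, 18.77, 18.77, 18.75 and 18.74 in Per2 libraries, which overlapped (-0.02, adjusted p = 0.36). Under quantile normalization Des was called lower with Per2 (-0.12, adjusted p = 0.00025), so which comparison called it depended on the scaling.

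Alpha-actinins cross-link actin in the Z-disc. Actn2 measured 14.50, 14.49, 14.45, 14.58 and 14.49 in Gfp and 14.48, 14.45, 14.45, 14.28 and 14.38 in Per1 libraries (-0.10 ± 0.034, adjusted p = 0.037). The groups overlapped, and the call was lost without Gfp library 11, 13, 15 or 16 or Per1 library 14 or 15 (adjusted p from 0.050 to 0.094). This call was also lost under quantile normalization (0.064), with no filter (0.086) and with no trend (0.058). In the Per2 and matched Gfp myotubes, Actn2 measured 13.68, 13.41, 13.71, 13.44 and 13.53 in Gfp and 13.57, 13.39, 13.36, 13.40 and 13.32 in Per2 libraries, with an overlap at -0.15 ± 0.059 (adjusted p = 0.068, and 0.020 to 0.036 without Gfp library 2 or 4 or Per2 library 1). Actn3, the isoform of fast fibres, fell with Per1 by 0.08 log2 units with no overlap (adjusted p = 0.00054) and differed by -0.03 with Per2 (adjusted p = 0.25).

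Among the calsarcins, which link actinin to calcineurin, Myoz2 fell with Per1 (-0.21, adjusted p = 6.1e-05) and Myoz1 with Per2 (-0.25, adjusted p = 0.0022), both without overlap. Myoz2 differed by -0.05 with Per2 (adjusted p = 0.26) and Myoz1 by -0.03 with Per1 (adjusted p = 0.54), while Myoz3 was called in neither. Flnc, the muscle filamin, fell in both, by 0.16 with Per1 and 0.14 with Per2 (adjusted p of 0.00068 and 0.0042), with no overlap. Smpx, a small protein of the costamere and sarcomere, fell by 0.18 and 0.12 (adjusted p of 0.00081 and 0.012). Csrp3, muscle LIM protein, fell with Per1 (-0.14, adjusted p = 0.0052) and differed by 0.05 with Per2 (adjusted p = 0.36).

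Titin, the thick filament and the M-band held no gene that rose. Called lower were 4 of 7 with Per1 (Myom1, Myom2, Myom3 and Obsl1) and 4 of 7 with Per2 (Ttn, Myom2, Mybpc1 and Obsl1), all 7 differences were below 0 in both comparisons, and the medians were -0.11 and -0.12 log2 units. Obsl1 and Myom2 were called in both.

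Obsl1 codes for a cytoskeletal linker that binds titin and myomesin in the M-band (chr1:75485825-75506486). It measured 15.30, 15.28, 15.13, 15.24 and 15.21 in Gfp and 14.90, 14.82, 14.87, 14.82 and 14.81 in Per1 libraries. The groups lay apart by -0.39 ± 0.028 (adjusted p = 9.1e-08), or 0.764 times the Gfp level. In the comparison with Per2 the values were 14.22, 14.11, 14.26, 14.06 and 14.08 in Gfp and 13.89, 13.96, 13.96, 13.92 and 13.93 in Per2 libraries. They did not overlap either, at -0.22 ± 0.035 (adjusted p = 0.00024).

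Myom2, M-protein, the M-band bridge of fast fibres (chr8:15057653-15133420), measured 17.39, 17.39, 17.43, 17.37 and 17.38 in Gfp and 17.16, 17.10, 17.16, 17.09 and 17.10 in Per1 libraries. With Per1 it fell by 0.27 log2 units (SE 0.019, adjusted p = 6.9e-08), the smallest adjusted p among the 43 genes. In the Per2 experiment it measured 16.93, 16.91, 16.95, 16.88 and 16.94 in Gfp and 16.72, 16.75, 16.75, 16.66 and 16.71 in Per2 libraries, a fall by 0.21 (SE 0.021, adjusted p = 5.3e-06). All Per libraries were below all Gfp libraries in both experiments.

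Myom1, myomesin, the M-band bridge of all striated muscle (chr17:71003332-71126856), measured 14.75, 14.73, 14.72, 14.74 and 14.71 in Gfp and 14.56, 14.62, 14.53, 14.46 and 14.49 in Per1 libraries. It fell by 0.20 log2 units with no overlap (SE 0.025, adjusted p = 1.7e-05). For the Per2 comparison, its 14.60, 14.54, 14.70, 14.52 and 14.60 in Gfp overlapped with 14.52, 14.58, 14.56, 14.46 and 14.50 in Per2 libraries (-0.06, adjusted p = 0.13). Myom3, found in intermediate fibres, fell with Per1 (-0.11, adjusted p = 0.0042) with some overlap and was not called with Per2 (-0.06, adjusted p = 0.31).

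Ttn codes for titin, the spring and ruler of the sarcomere (chr2:76703980-76982557). It measured 18.80, 18.88, 18.79, 18.77 and 18.74 in Gfp and 18.84, 18.58, 18.73, 18.76 and 18.72 in Per1 libraries, which overlapped (-0.07 ± 0.039, adjusted p = 0.17). In the Per2 and matched Gfp myotubes, it measured 18.41, 18.27, 18.35, 18.18 and 18.28 in Gfp and 18.25, 18.14, 18.24, 18.11 and 18.18 in Per2 libraries. The difference of -0.12 ± 0.039 (adjusted p = 0.034) came with an overlap of the groups. It was no longer called without Gfp library 1, 3 or 5 or Per2 library 2, 4 or 5 (adjusted p from 0.050 to 0.088). The same held under quantile normalization (0.066), with no filter (0.068) and with no trend (0.0505).

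Mybpc1, slow myosin-binding protein C (chr10:88518279-88605229), measured 12.66, 12.35, 12.74, 12.49 and 12.60 in Gfp and 12.49, 12.24, 12.24, 12.24 and 12.15 in Per2 libraries. It fell by 0.30 log2 units (SE 0.069, adjusted p = 0.0039), and the overlap came from Gfp library 2 and Per2 library 1. Within the Per1 experiment it measured 12.94, 12.91, 12.97, 12.99 and 12.92 in Gfp and 12.97, 12.85, 12.92, 12.71 and 12.83 in Per1 libraries (-0.09, adjusted p = 0.065). Mybpc2, the fast form, was called in neither comparison (-0.06 with Per1 and -0.09 with Per2).

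**Figure D4:**
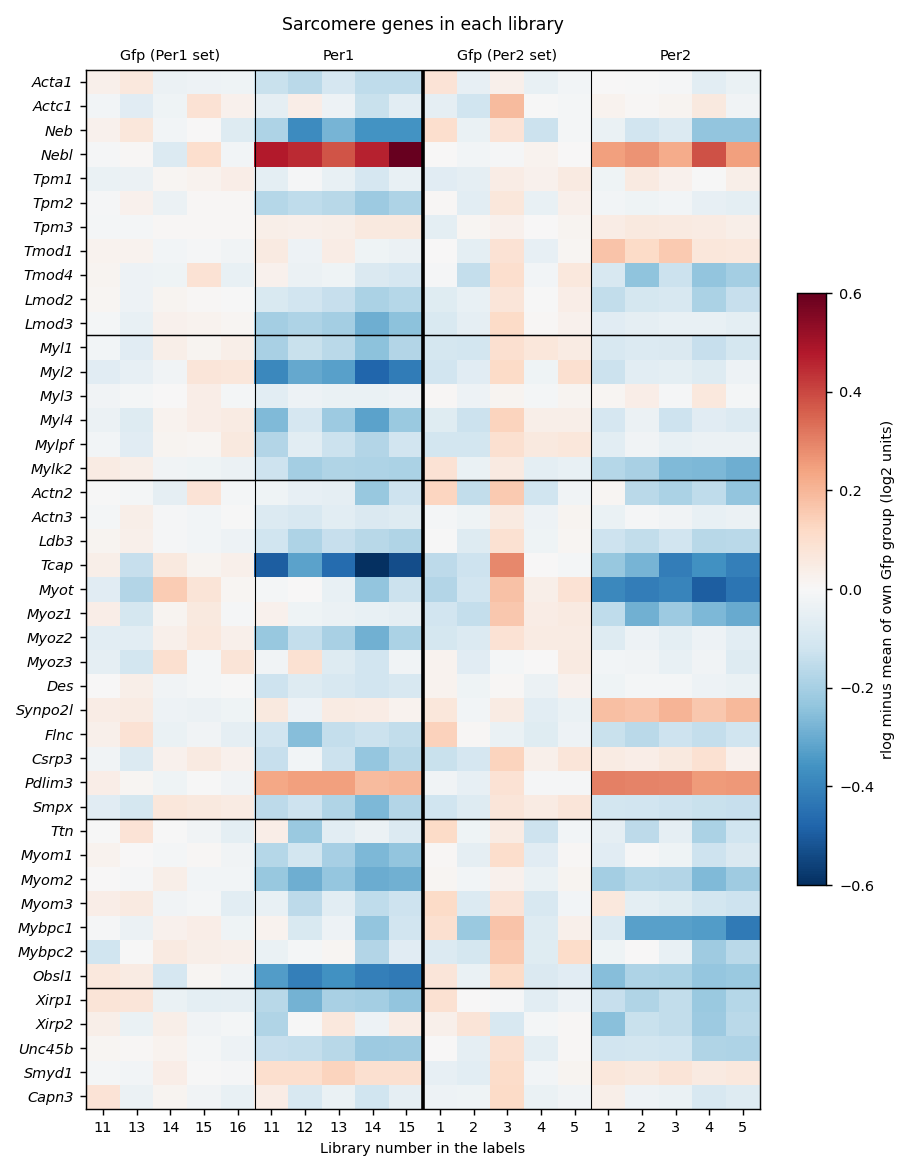
Each of the 43 sarcomere genes (rows, in role groups) in each of the 20 libraries (columns, by their number in the labels), as rlog minus the mean of the Gfp group of the same experiment, in log2 units (blue lower, red higher). The thick line separates the experiments. Nebl, Pdlim3, Smyd1 and Tpm3 were above the Gfp mean in all Per1 and Per2 libraries, Synpo2l, Tmod1 and Csrp3 in all Per2 libraries, and Gfp library 3 of the Per2 experiment was red in most rows.

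Of the 5 assembly and repair genes, Xirp1 and Unc45b fell in both comparisons, Xirp2 fell with Per2 and Smyd1 rose with Per1. Xirp1 and Xirp2 code for the Xin actin-binding proteins, which gather at sites of myofibril growth and damage. Xirp1 measured 14.80, 14.79, 14.68, 14.66 and 14.67 in Gfp and 14.55, 14.44, 14.52, 14.52 and 14.48 in Per1 libraries (-0.22 ± 0.030, adjusted p = 4.7e-05). In the comparison with Per2 it measured 14.28, 14.19, 14.19, 14.13 and 14.16 in Gfp and 14.05, 14.01, 14.04, 13.97 and 14.02 in Per2 libraries (-0.17 ± 0.027, adjusted p = 0.00017). Neither pair of groups overlapped.

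Xirp2 measured 12.15, 12.19, 12.02, 12.11 and 12.12 in Gfp and 11.87, 11.98, 11.97, 11.90 and 11.95 in Per2 libraries. It fell by 0.18 log2 units with no overlap (SE 0.032, adjusted p = 0.00043). In the Per1 experiment it measured 11.89, 11.82, 11.89, 11.83 and 11.84 in Gfp and 11.68, 11.86, 11.92, 11.83 and 11.90 in Per1 libraries, which overlapped (-0.02, adjusted p = 0.70).

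Unc45b, the muscle chaperone that folds myosin heads, measured 14.86, 14.85, 14.87, 14.84 and 14.82 in Gfp and 14.71, 14.71, 14.68, 14.63 and 14.63 in Per1 libraries (-0.17, adjusted p = 5.4e-06). In the Per2 experiment it measured 14.42, 14.37, 14.52, 14.36 and 14.43 in Gfp and 14.31, 14.31, 14.30, 14.24 and 14.23 in Per2 libraries (-0.14, adjusted p = 0.0013). All Per libraries were below all Gfp libraries in both. Smyd1, a lysine methyltransferase that works with this chaperone in zebrafish, rose with Per1 (0.11 ± 0.015, adjusted p = 7.4e-05) with no overlap and differed by 0.06 with Per2 (adjusted p = 0.078, or 0.0024 without Gfp library 3). Capn3, the muscle calpain bound to titin, was called in neither, and 27.1% of its 50-base words also occurred in other annotated genes.

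Several sarcomeric proteins have relatives in the nonmuscle cytoskeleton, so 18 such genes were set beside them. With Per1, 8 of the 18 rose and 3 fell, where 20.1% of all genes rose and 20.6% fell. With Per2, 7 rose and 1 fell, where 18.6% of all genes rose and 17.5% fell. The medians were 0.05 and 0.02 log2 units. Median centring gave medians of 0.03 and 0.002, the latter close to 0, with 6 rises and 4 falls with Per1 and 5 and 2 with Per2. Quantile normalization gave medians of 0.06 and 0.04, with 10 rises and 2 falls with Per1 and 8 and 0 with Per2. Myl6, the nonmuscle essential light chain, rose by 0.21 with Per1 (adjusted p = 1.7e-05) and 0.14 with Per2 (adjusted p = 0.00034). Cfl1, nonmuscle cofilin, which severs actin, rose by 0.19 and 0.11 (adjusted p of 9.2e-06 and 0.0014). Actg1, cytoplasmic gamma-actin, rose by 0.12 and 0.13 (adjusted p of 0.00070 and 0.00055), and Tpm4, a nonmuscle tropomyosin, by 0.10 and 0.12 (adjusted p of 0.00028 and 0.0010). An exception was Actn1, the nonmuscle actinin, which fell by 0.21 with Per1 and 0.08 with Per2 (adjusted p of 1.9e-05 and 0.047, the latter 0.14 under quantile normalization).

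**Figure D5:**
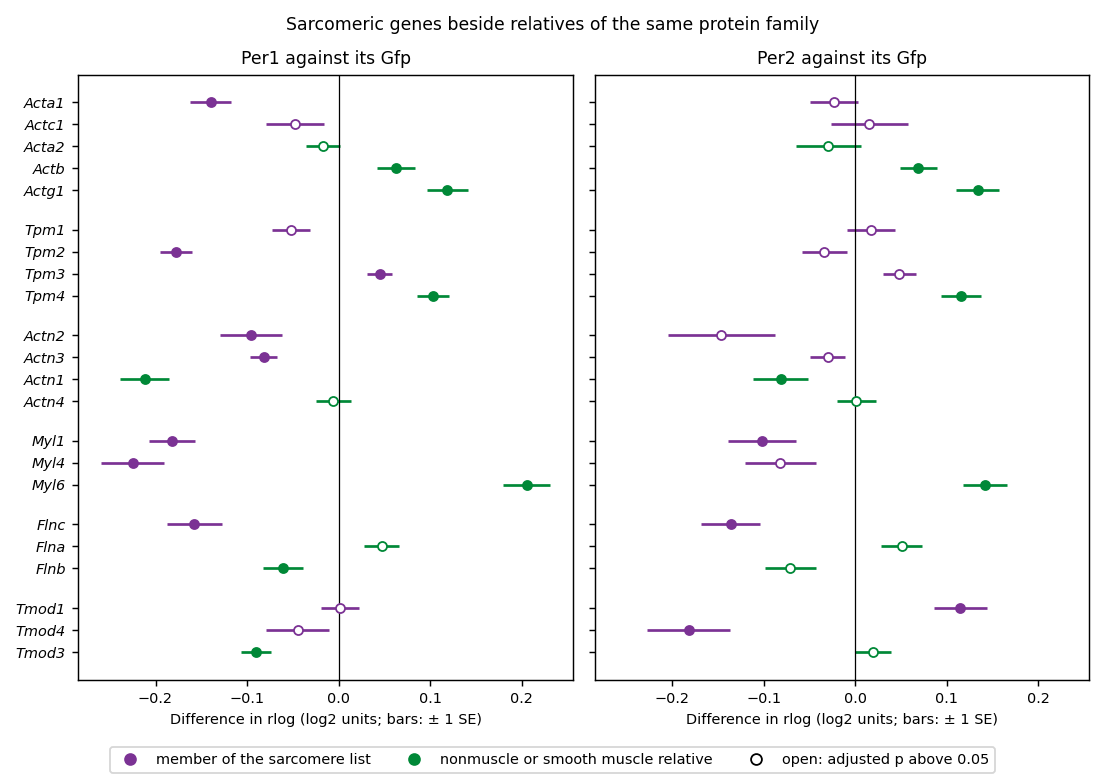
Difference in rlog from Gfp (x axis, log2 units, bars of 1 standard error, 5 libraries per group) for sarcomeric genes (purple) and their nonmuscle or smooth muscle relatives (green), grouped as actins, tropomyosins, alpha-actinins, essential light chains, filamins and tropomodulins. Filled points passed an adjusted p of 0.05. With Per1, Acta1 lay at -0.14 and Actg1 at 0.12, and Myl1 at -0.18 and Myl6 at 0.21.

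The rest of the contractile machinery was read from lists that do not contain the 43 genes and were likewise chosen with earlier results known. Beside the counts of these lists, all genes tested gave 20.6% lower and 20.1% higher with Per1, and 17.5% and 18.6% with Per2. Among 16 myosin heavy chain and troponin genes, 14 fell and none rose with Per1 (median -0.18), and 6 fell and 2 rose with Per2 (median -0.08). Myh1, the fast IIx heavy chain, fell in both, from 18.25 ± 0.03 to 17.96 ± 0.08 with Per1 (-0.29, adjusted p = 3.8e-06) and from 18.16 ± 0.06 to 17.73 ± 0.07 with Per2 (-0.44, adjusted p = 5.1e-07). Myh2, the IIa heavy chain, fell by 0.29 and 0.40 log2 units (adjusted p of 5.7e-06 and 3.4e-06). Myh4, the IIb heavy chain, fell with Per1 by 0.37 (adjusted p = 9.1e-06), and Myh8, the perinatal chain, fell with Per2 by 0.31 (adjusted p = 0.00087).

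Of 42 other sarcomere-associated genes tested, 31 fell and 6 rose with Per1, and 20 fell and 6 rose with Per2. Among the larger changes with Per1 were falls of Hspb7, a small heat shock protein of the sarcomere (-0.43, adjusted p = 1.7e-07), and Ankrd23, a titin-bound ankyrin repeat protein (-0.32, adjusted p = 4.3e-08). The largest with Per2 were falls of Synm, the desmin partner synemin (-0.51, adjusted p = 4.3e-06), Hsp90aa1, which works with Unc45b in folding myosin (-0.34, adjusted p = 3.4e-07), and Asb2, a ubiquitin ligase subunit that targets filamins (-0.31, adjusted p = 2.8e-05). In the costamere, which ties the Z-disc to the membrane, 8 of 21 genes fell and 3 rose with Per1, and 3 fell and 5 rose with Per2. The medians were -0.01 and 0.01 log2 units, and with Per2 the shares (14.3% lower and 23.8% higher) were near those of all genes. Dmd, dystrophin, fell in both, by 0.31 and 0.25 log2 units (adjusted p of 0.0012 and 0.0019).

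Among 29 regulators of sarcomere genes, 15 fell and 4 rose with Per1 and 9 fell and 5 rose with Per2. With Per1, Vgll2, a cofactor of TEAD factors in muscle, and Myf5, the myogenic factor of myoblasts, both rose by 0.53 log2 units (adjusted p of 4.7e-10 and 9.4e-11), and Mef2c, a MEF2 factor of differentiating muscle, fell by 0.39 (adjusted p = 3.9e-07). With Per2, Myf6, the myogenic factor of mature muscle, fell by 0.29 (adjusted p = 0.00016), Prox1, a factor of slow fibres, rose by 0.20 (adjusted p = 0.0028) and Maf, a factor of fast IIb fibres in other work on mouse muscle, fell by 0.16 (adjusted p = 0.00070).

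Markers of other cells and states were read alongside, and their part in the sarcomere results was not tested. Beside the marker counts, all genes tested gave 20.6% lower and 20.1% higher with Per1, and 17.5% and 18.6% with Per2. Myotube markers fell for 10 of 11 genes with Per1 and for 4 of 11 with Per2, where 1 rose. Their mean lay between 15.97 and 16.03 in Gfp and 15.78 and 15.86 in Per1 libraries, and between 15.36 and 15.54 in Gfp and 15.36 and 15.41 in Per2 libraries. Cacna1s, the calcium channel of the T-tubule, fell by 0.30 and 0.17 (adjusted p of 4.6e-06 and 0.017). Markers of proliferating myoblasts rose for 3 of 8 genes in each comparison. With Per1 the largest rise was that of Myf5, counted above among the regulators (0.53), and Mki67, the gene of the proliferation antigen Ki-67, fell (-0.10, adjusted p = 0.043). Their mean was 13.26 to 13.37 in Gfp and 13.39 to 13.51 in Per1 libraries, and 13.30 to 13.41 in Gfp and 13.39 to 13.53 in Per2 libraries.

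Fibroblast markers rose for 4 of 8 genes in each comparison, among them Col3a1 by 0.26 and 0.25 log2 units (adjusted p of 3.2e-08 and 5.5e-05). Their mean was 13.29 to 13.33 in Gfp and 13.38 to 13.44 in Per1 libraries, and 13.23 to 13.32 in Gfp and 13.36 to 13.46 in Per2 libraries. Of 8 smooth muscle markers, 2 fell with Per1 (25%, near the share of all genes), and 3 fell and 1 rose with Per2. Their medians were -0.01 and 0.004 log2 units. Tagln, transgelin, fell most (-0.57 with Per1, adjusted p = 1.9e-08, and -0.34 with Per2, adjusted p = 0.0021). The mean of the smooth muscle list was 11.93 to 12.04 in Gfp and 11.88 to 11.95 in Per1 libraries, and 11.72 to 11.80 in Gfp and 11.63 to 11.76 in Per2 libraries.

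Leukocyte and endothelial markers were low. Of 8 leukocyte markers, 4 were above the floor for testing in the Per1 and 5 in the Per2 experiment, Adgre1 was listed at 0 in all 10 libraries of the Per2 experiment, and the mean lay between 3.59 and 3.98 over all libraries. Of those tested, 1 rose and 1 fell with Per1 and 2 fell with Per2. Of 6 endothelial markers, 5 were above the floor in each experiment, 3 rose and 1 fell with Per1 and 4 fell with Per2, and the mean lay between 4.50 and 4.70.

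The mean over a list of genes induced by interferon was higher in every Period library than in every Gfp library of the same experiment. All 15 on that list rose in both comparisons, with medians of 0.88 and 0.70 log2 units, and Oas2, an antiviral enzyme, rose by 1.23 with Per1 (adjusted p = 4.6e-08) and 1.01 with Per2 (adjusted p = 0.00016). The mean of the list was 9.42 to 9.70 in Gfp and 10.25 to 10.36 in Per1 libraries, and 9.98 to 10.39 in Gfp and 10.44 to 11.16 in Per2 libraries. These list means did not overlap in either experiment, and the virus load moved with them. Gene by gene, the groups did not overlap for 15 of 15 with Per1 and for 7 of 15 with Per2. Of all genes, 29.7% and 26.3% did not overlap.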

How the data were processed

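The authors sequenced polyadenylated RNA of 20 myotube cultures, used STAR for alignment and gene counts, and deposited regularized log2 (rlog) values, 1 table for 4 groups of 5 libraries. As genome, the methods name GRCm39 and the labels mm10. Shrinkage draws rlog differences toward 0, and the table without counts leaves sequencing depth unknown. The experiments were fitted apart because their values were made separately: beside 13523 genes listed at 0 throughout, 2712 were at 0 only in the Per1 and 2391 only in the Per2 experiment. RNA cultures are placed within an experimental replicate, so p values cover the spread among these wells and no more.

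Symbols came from GENCODE M39 (51654 of 55335 IDs matched), and positions and promoters from RefSeq GRCm38.p6. Testing used limma 3.58.1 (R 4.3.3, trend, two-sided) on genes whose mean rlog reached 3, and "rose" or "fell" means a Benjamini-Hochberg adjusted p of at most 0.05 over all genes tested. The size threshold was 0.5 log2 units. The fit was tested on simulated data. Every member is accounted for. Values per library are given for Acta1, Ttn, Neb, Des, Actn2, Mylpf and Myom1 and for up to 2 members with the largest called difference per role group and comparison, and of other lists up to 3 such genes are named (1 that the rule picks is not reported here), beside Per1, Per2 and, for the family plot, relatives. The members and lists were chosen with earlier results of these data known. Alternatives were quantile normalization, median centring, array weights, no trend, no filter or a floor of 5 rlog units, groups without overlap, library numbers as a block, and fits without 1 library.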

Additional observations from a re-analysis of the deposited data

Results flagged for a closer look

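In each group of 5 libraries, the highest and the lowest value of every member were compared with their neighbour (Dixon's ratio, critical value 0.71). This gave 6 distant values among 172 groups, and chance gives about 1 in 20. Tcap in Gfp library 13 of the Per1 experiment was low (11.55, the others 11.70 to 11.74). Flnc in Per1 library 12 was low (17.50, the others 17.60 to 17.64). Mybpc1 in Per2 library 1 was high (12.49, the others 12.15 to 12.24). Smyd1 was high in Gfp library 14 of the Per1 experiment (14.84, the others 14.79 to 14.80) and in Per1 library 13 (14.94, the others 14.90 to 14.91). Capn3 in Gfp library 3 of the Per2 experiment was high (12.72, the others 12.56 to 12.58), and this library was highest for 30 of the 43 members.

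Csrp3, muscle LIM protein, was below the Gfp mean in every Per1 library (-0.14) and above it in every Per2 library (0.05). The difference between these effects was not tested.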

How the results depend on the processing

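No called member and neither median over the 43 genes changed direction under the alternatives run. Medians of smaller lists near 0 did: the thin filament with Per2 (0.02 under quantile normalization), costamere and smooth muscle markers with Per1 (0.005 and 0.006 under quantile normalization), and the same 2 lists with Per2 (-0.01 and -0.02 under median centring, and -0.01 for smooth muscle markers without Gfp library 3). The number of members lower with Per1 past the size threshold was 0, and 1 (Tcap) under median centring, quantile normalization, array weights and the replicate block. The median difference with Per1 was -0.13 under median centring. Leaving out a library in turn gave 3 to 4 higher and 24 to 28 lower members with Per1 (0 to 1 past the size threshold in either direction) and a median from -0.12 to -0.10. With Per2 it gave 4 to 6 higher and 15 to 20 lower (0 past the size threshold) and a median from -0.09 to -0.04, lowest in size without Gfp library 3. Calls lost in at least 1 fit without a library were Myl3, Actn2 and Tpm3 with Per1 and Neb, Myl1 and Ttn with Per2. Quantile normalization lost Myl3, Actn2 and Des with Per1 and Neb, Myl1 and Ttn with Per2. With no filter, Myl3 and Actn2 with Per1 and Neb, Myl1 and Ttn with Per2 were lost, and with no trend the same genes except Neb. Tpm3 with Per1 was lost under median centring, and Myl3 with Per1 under the replicate block. Calls gained without a library were Tpm1, Ttn, Mybpc1, Mybpc2 and Capn3 with Per1, and Tpm3, Lmod3, Myl4, Actn2 and Smyd1 with Per2. Calls gained only under other settings were Synpo2l with Per1 and Mylpf and Des with Per2 (quantile normalization). Actn3 and Myom1 (median centring) and Myoz2 (array weights) were also gained with Per2. Members lower with Per2 numbered 22 under median centring and array weights alike, 17 under quantile normalization, 16 with no trend and 15 with no filter. With Per1 these settings gave 28, 28, 23, 24 and 24. Libraries with equal numbers had low correlations of deviations (from -0.015 to 0.136 with Per1 and -0.105 to 0.180 with Per2). In each comparison 1 number was best matched by its own partner, and whether the numbers pair the cultures was not tested. With the numbers as a replicate block, 4 members were higher and 25 lower with Per1, and 4 higher and 19 lower with Per2. Median centring moved the median of all genes by -0.02. With no counts, no limit from depth can be given.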
